A study of Mus musculus with 15 samples.

Results

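Small non-coding RNAs carried 2840 of the 123142 distinct crosslink positions found for tristetraprolin (TTP) and its mutant TTP-AA in mouse macrophages. A position was included when it lay on the sense strand in an exon of a gene annotated as snRNA, snoRNA, scaRNA, miRNA, misc_RNA, rRNA, ribozyme or sRNA (GENCODE M21, mm10) and in no protein-coding exon. Mitochondrial positions and a repetitive ribosomal-RNA-like locus on chromosome 17 were left out. Of 6083 annotated small RNA genes, 283 had at least 1 site, and none of these was of the sRNA class. The labels of the RNA classes were taken from the annotation, and the RNAs themselves were recognised by symbol or by sequence likeness.

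TTP is a zinc finger protein that binds AU-rich elements in the 3′UTRs of short-lived mRNAs and promotes their decay. TTP-AA cannot be phosphorylated by the kinase MK2 at its main serines, which have been changed to alanine. The cells were C57BL/6 bone marrow-derived macrophages deficient in TTP, differentiated with M-CSF and immortalized with human c-myc and an oncogenic Ras. CD11b- and F4/80-positive cells then received a doxycycline-inducible vector for GFP-TTP or GFP-TTP-AA, so that each protein came from a transgene with a GFP tag and not from its own locus. All 6 groups received doxycycline for 6 h. They received LPS, a bacterial inducer of inflammation, for 0, 1 or 4 h, giving the groups TTP and TTP-AA at each time. The RNA crosslinked by UV light was purified through the GFP tag and sequenced by iCLIP, in which a reverse transcript stops 1 nucleotide (nt) before the crosslinked base. The unit throughout is the unique cDNA, 1 reverse transcript at 1 position after removal of PCR copies.

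The libraries of a group were summed into 1 list of significant sites, from 2, 4 and 2 TTP libraries and 2, 3 and 2 TTP-AA libraries at 0, 1 and 4 h. No value per library was used, so no difference between groups was tested against replicate spread. All intervals are 95% intervals and cover counting error only, and PCR and pooling of cultures add error that they do not hold. The TTP list at 0 h had 33587 cDNAs and that of TTP-AA 32617, followed by 99263 and 174397 after 1 h, and 29060 and 19167 after 4 h. Macrophage mRNAs were present (Lyz2 300 cDNAs, Itgam 90 and Adgre1 39 over the 6 lists), and no cDNA lay in Cd3e or Epcam, although crosslinks do not measure the level of an RNA. A list for GFP alone was not analysed here, so that crosslinks to the tag or to abundant RNA in general cannot be set apart from those of TTP. The 2 lists at 1 h carry a header mark for peak calling that the 0 h and 4 h lists lack, and the part of this difference in any comparison across time cannot be told apart from LPS.

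Most of these RNAs belong to the housekeeping machinery of the cell. U1, U2, U5 and U6 are RNAs of the spliceosome. 7SK holds back the transcription elongation factor P-TEFb, RNase P and RNase MRP process tRNA and rRNA precursors, and snoRNAs guide the modification or cleavage of rRNA. Y RNAs are short stem-loop RNAs that bind the Ro60 protein, and vault RNAs are part of the large cytoplasmic vault particle. The 283 genes carried 19768 cDNAs over the 6 lists, and the 3 leading genes, Rny3, Rny1 and Rn7sk, carried 24.7% of them. The 10 leading genes carried 37.7%. Per nucleotide of RNA, Rny3 carried 23.5 cDNAs, Rny1 12.8, Mir6236 3.59, n-R5-8s1 3.24 and Rn7sk 3.18.

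The sequences at the leading sites of the 2 Y RNAs and of 7SK, U12 and RNase MRP are given first, since the results turn on where in these RNAs the crosslinks lay. Each line holds 30 bases of the annotated transcript (GENCODE M21, mm10) from 5′ to 3′, with T for U, and the capital marks the base with most cDNAs over the 6 lists.
Rny3, chr6:47781667-47781696, plus strand, base 59 of the RNA: ccagttacagatttcTttgttccttctccg
Rny1, chr6:47788083-47788112, minus strand, base 84: ctacactttccccccTtctcactactgcac
Rn7sk, chr9:78175325-78175354, minus strand, base 295: gactccagacacatcCaaatgaggcgctgc
Rnu12, chr15:83149747-83149776, plus strand, base 119: aggcgacccgcctacTttgcgggatgcctg
Rmrp, chr4:43492797-43492826, minus strand, base 248: ggctcgcaccaaccaCacggggctcattct
None of these 5 stretches held AUUUA, the core of an AU-rich element.

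Small non-coding RNAs made up 11.1% (10.8 to 11.5) of TTP cDNAs and 12% (11.6 to 12.4) of TTP-AA cDNAs at 0 h. At 1 h they made up 4.65% (4.52 to 4.78) and 3.24% (3.15 to 3.32), and at 4 h 2.87% (2.68 to 3.07) and 5.32% (5.01 to 5.65). The share was thus highest in both lists without LPS. The share in TTP-AA over that in TTP was 1.08 (1.03 to 1.13) at 0 h, 0.696 (0.669 to 0.723) at 1 h and 1.85 (1.69 to 2.03) at 4 h. These directions depended on what was counted. With each site counted once, the ratios were 0.831, 0.324 and 0.912. At 0 h the ratio was 0.907 without Rny3, the gene with most cDNAs. At 1 h, when 3′UTRs took 53.6% of TTP-AA cDNAs against 9.63% of TTP cDNAs, the ratio was 1.36 (1.30 to 1.41) among cDNAs outside 3′UTRs. The classes did not follow the sum, and each is therefore given on its own.

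**Figure D1:**
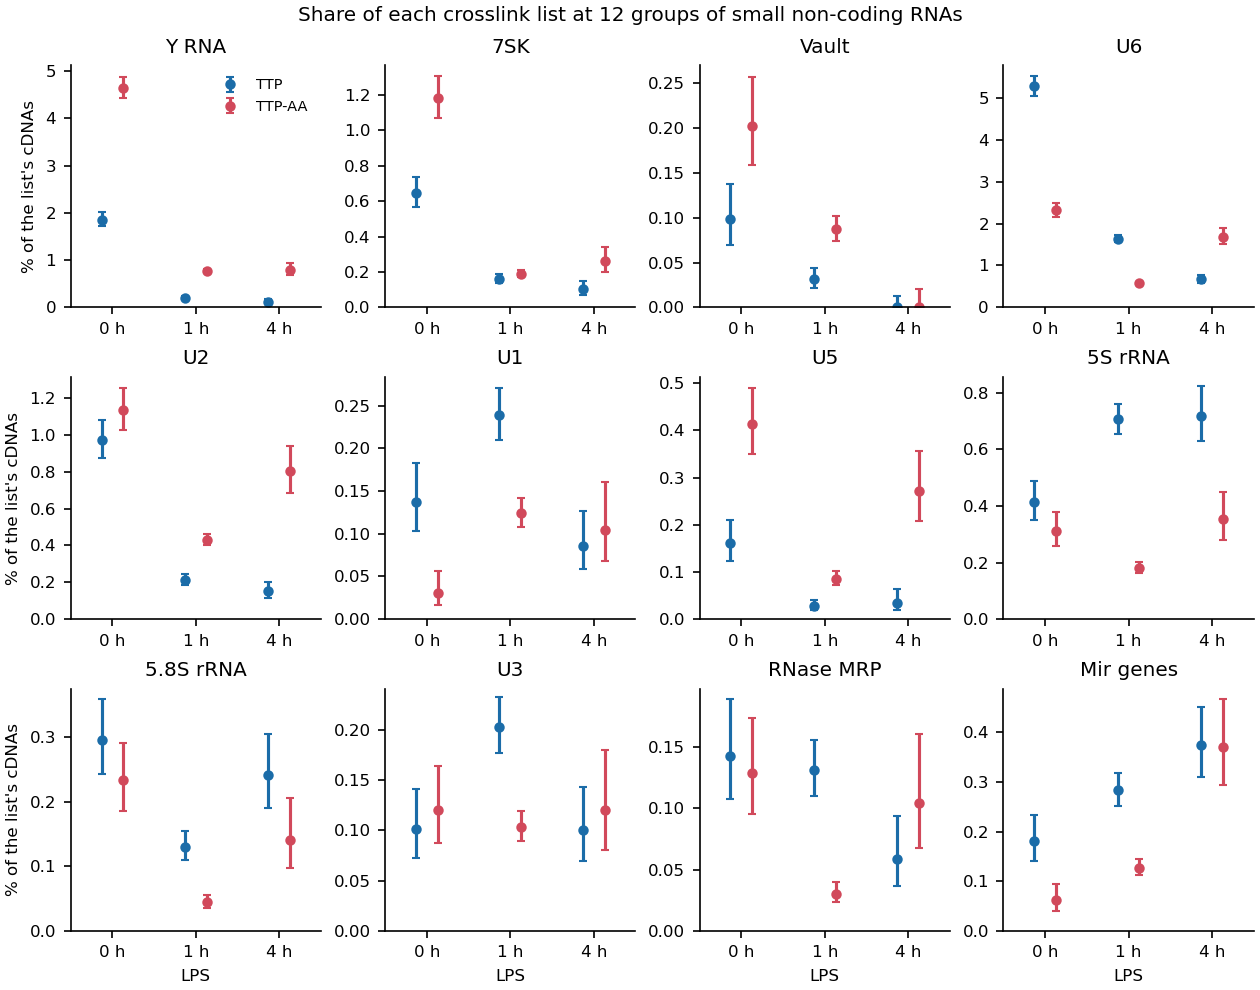
Share of each list's cDNAs (percent, y axis, each panel with its own scale from 0) at 12 groups of small RNAs against hours of LPS, for TTP (blue) and TTP-AA (red), as points with 95% Wilson intervals. Y RNA stood above in TTP-AA at all 3 times (4.65% against 1.86% at 0 h), whereas U6 stood above in TTP at 0 h and 1 h and in TTP-AA at 4 h.

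Y RNAs were crosslinked more in TTP-AA than in TTP at each time. The family had 624 TTP and 1516 TTP-AA cDNAs before LPS, 204 and 1349 after 1 h, and 35 and 153 after 4 h. Its share in TTP-AA was 2.5-fold (2.28 to 2.75), 3.76-fold (3.25 to 4.38) and 6.63-fold (4.57 to 9.86) that in TTP at the 3 times. Among the cDNAs of small RNAs alone, a scale that 3′UTRs do not touch, Y RNAs were 16.7% of the TTP and 38.7% of the TTP-AA cDNAs before LPS, 4.42% and 23.9% after 1 h, and 4.2% and 15.0% after 4 h. The direction held on each of 4 scales of cDNAs. It turned at 1 h when each site counted once (0.413), where the TTP-AA list at 1 h had 86497 sites in all and TTP had 25960.

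Rny3 alone carried 377 TTP and 949 TTP-AA cDNAs at 0 h, 121 and 850 after 1 h, and 12 and 93 after 4 h. Its ratio was 2.59 (2.30 to 2.93), 4.00 (3.30 to 4.88) and 11.8 (6.42 to 23.6). Rny1 carried 236 and 532, 83 and 499, and 23 and 60, with ratios of 2.32 (1.99 to 2.72), 3.42 (2.71 to 4.37) and 3.96 (2.41 to 6.70). Both genes were thus on the TTP-AA side at each time. The other two Y-like genes, Gm24379 and Gm26456, had 40 and 6 cDNAs, all at 0 h. All Y cDNAs with 30 nt of RNA left downstream lay at sequence found in 1 annotated locus (3235 of 3235). The rest of the 3881 Y cDNAs could not be checked in this way. Copies outside the annotation were not searched, so a split or loss of reads between copies is not excluded.

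Within the Y RNAs the listed crosslinks lay in the inner part of the molecule and not at its ends, which pair to form the stem. Sites near the 3′ end leave little RNA to map, and the part of this in their absence was not tested. In Rny3, bases 41 to 78 of 102 held 100% of the cDNAs in 5 of the 6 lists and 95.3% (93.7 to 96.4) in TTP-AA at 0 h, where 904 of 949 cDNAs were inside. In Rny1, bases 41 to 88 of 112 held between 98.5% and 100% in each list. The base with most cDNAs differed between lists (72, 59, 61, 56, 64 and 51 in Rny3), whereas the median position stayed between 58 and 65. The stretches printed above for Rny3 and Rny1 come from these inner parts and are rich in pyrimidines. In the Y family, U was the crosslinked base for 50.2% of TTP and 49.9% of TTP-AA cDNAs at 0 h, against 33.8% U in the RNAs themselves.

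**Figure D2:**
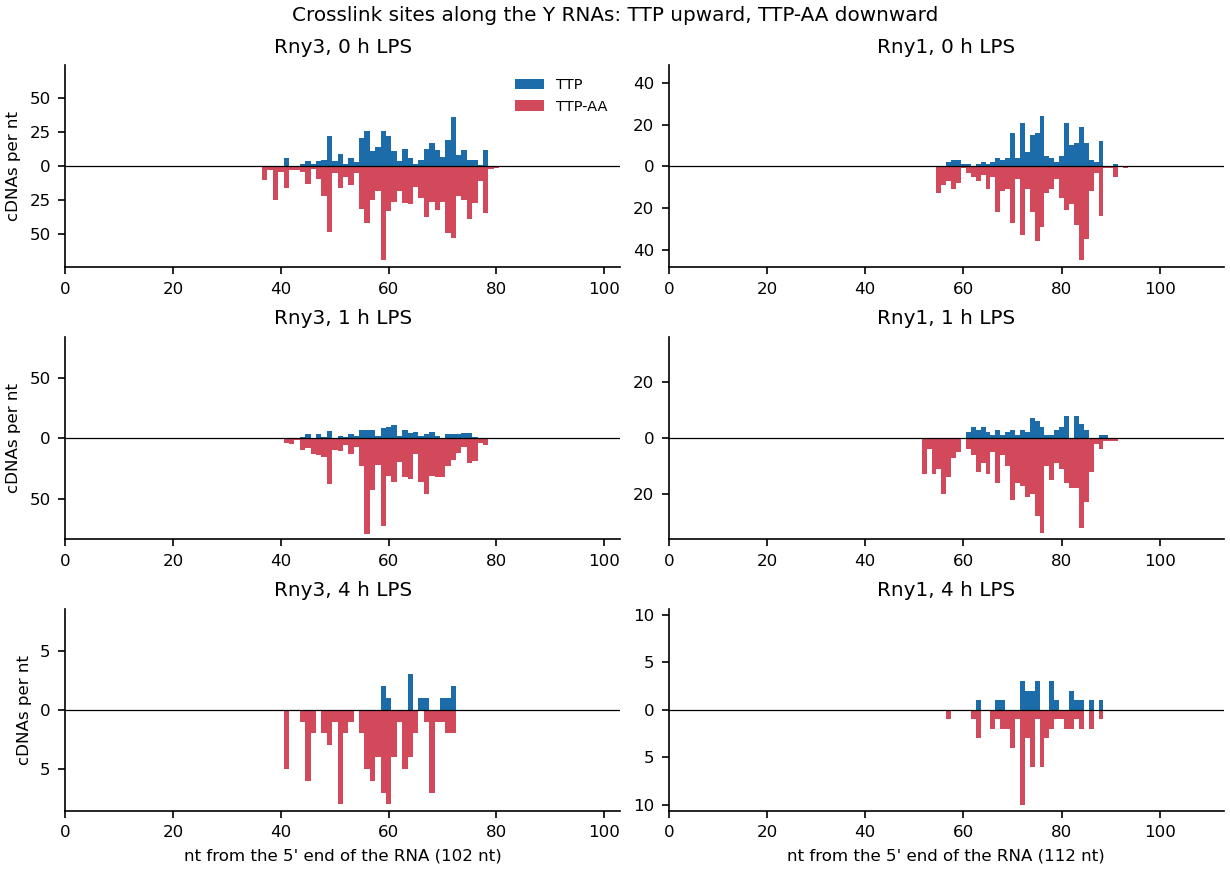
cDNAs per nucleotide (y axis, each panel with its own scale) along Rny3 and Rny1 (x axis, nt from the 5′ end) at 0, 1 and 4 h of LPS, TTP drawn upward in blue and TTP-AA downward in red. The sites of both proteins lie in the inner part of each RNA, bases 41 to 78 of Rny3 holding 377 of 377 TTP and 904 of 949 TTP-AA cDNAs at 0 h, and TTP-AA has more cDNAs at each time. At 4 h the 12 TTP cDNAs of Rny3 span bases 59 to 72 and the 93 TTP-AA cDNAs bases 41 to 72.

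U6, the RNA that forms part of the catalytic centre of the spliceosome, was the largest family by number of genes. It had 99 copies and 5676 cDNAs, and no copy held more than 4.60% of them. U6 carried 1775 TTP and 755 TTP-AA cDNAs at 0 h, 1625 and 1001 after 1 h, and 196 and 324 after 4 h. The ratio of shares was 0.438 (0.402 to 0.477), 0.351 (0.324 to 0.380) and 2.51 (2.09 to 3.01), so that U6 was lower in TTP-AA at 0 h and 1 h and higher at 4 h. These directions were the same for cDNAs outside 3′UTRs (0.467, 0.683 and 2.56) and among small RNA cDNAs (0.407, 0.504 and 1.35). Of the copies with at least 10 cDNAs over both lists, 54 of 63 had the larger share in TTP at 0 h and 51 of 53 at 1 h, and 14 of 18 had the larger share in TTP-AA at 4 h. Copies share sequence and are not independent of each other.

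Single copies differed in where they were crosslinked. Gm25431, the copy with most cDNAs, had 50 and 20 before LPS (0.412, 0.232 to 0.704), 113 and 70 after 1 h (0.353, 0.258 to 0.479), and 8 and 0 after 4 h, and 260 of its 261 cDNAs lay in bases 11 to 40. Gm25987 had 53 and 74 (1.44, 0.997 to 2.09), 21 and 30 (0.813, 0.450 to 1.49), and 18 and 58 (4.89, 2.84 to 8.81), and its sites lay only between bases 61 and 87. The 2 copies with most U6 cDNAs thus had different parts crosslinked and different ratios. Gm22633 had 79 and 20 at 0 h (0.261, 0.151 to 0.430) and 36 and 31 at 1 h. The leading base of Gm25987, base 72, is the capital in chr15:68671472-68671501 on the plus strand (GENCODE M21, mm10).
Gm25987: cggcacctgcgcaagGatgacacgcaaatt

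The U6 crosslinks peaked at 1 base. After alignment of the copies to Rnu6, base 23 held 2183 of 5676 cDNAs from 38 copies. The region from base 16 to 30 held 44.9% of TTP and 43.7% of TTP-AA cDNAs at 0 h. At 1 h it held 76.2% (74.1 to 78.2) and 66.1% (63.1 to 69.0), and at 4 h 65.8% (58.9 to 72.1) and 17.9% (14.1 to 22.4). The TTP-AA list at 4 h stood apart, with 59.3% (53.8 to 64.5) of its U6 cDNAs at bases 61 to 90 and most cDNAs at base 68. TTP at 4 h had 16.8% (12.2 to 22.7) there. A second difference between the proteins was at bases 31 to 60 at 0 h, with 29.6% of TTP and 8.48% of TTP-AA cDNAs.

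The copies are shown because unique mapping decides which of them received a cDNA. Each line gives bases 11 to 40 of Rnu6 or the bases aligned to them (GENCODE M21, mm10), 5′ to 3′, and capitals mark where a copy differs from Rnu6, with substitutions counted from the 5′ end of Rnu6 and written as RNA.
Rnu6, chr17:13432100-13432129, minus strand, 0 cDNAs in this stretch: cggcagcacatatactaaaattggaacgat
Gm25431, chr19:3137051-3137080, minus strand, 260 cDNAs, A36G: cggcagcacatatactaaaattggaGcgat
Gm25698, chr11:16732672-16732701, minus strand, 176 cDNAs, none: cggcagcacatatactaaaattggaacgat
Gm25257, chrX:154979352-154979381, plus strand, 172 cDNAs, G12A and C19U: cAgcagcaTatatactaaaattggaacgat
Gm23445, chr7:126915787-126915816, minus strand, 171 cDNAs, G12A and A24U: cAgcagcacatatTctaaaattggaacgat
Rnu6, identical to Gm25698 in this stretch, had no cDNA there, and Gm25431 with 1 change had the most. Of U6 cDNAs with 30 nt of RNA left downstream, 72.5% lay at sequence found in 1 annotated locus. This percentage differed by list. It was lowest without LPS, where TTP had 59.6% and TTP-AA 60.7%. One hour of LPS gave 86.1% in the TTP list against 77.3% for the mutant, and the 4 h lists had 81.4% and 73.8%. Values of single copies are therefore uncertain. The family sums do not depend on which copy received a cDNA and are firmer in this respect. However, cDNAs from the major U6 RNA that map to several copies were not counted at all. Whether this loss differed between lists was not tested.

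**Figure D3:**
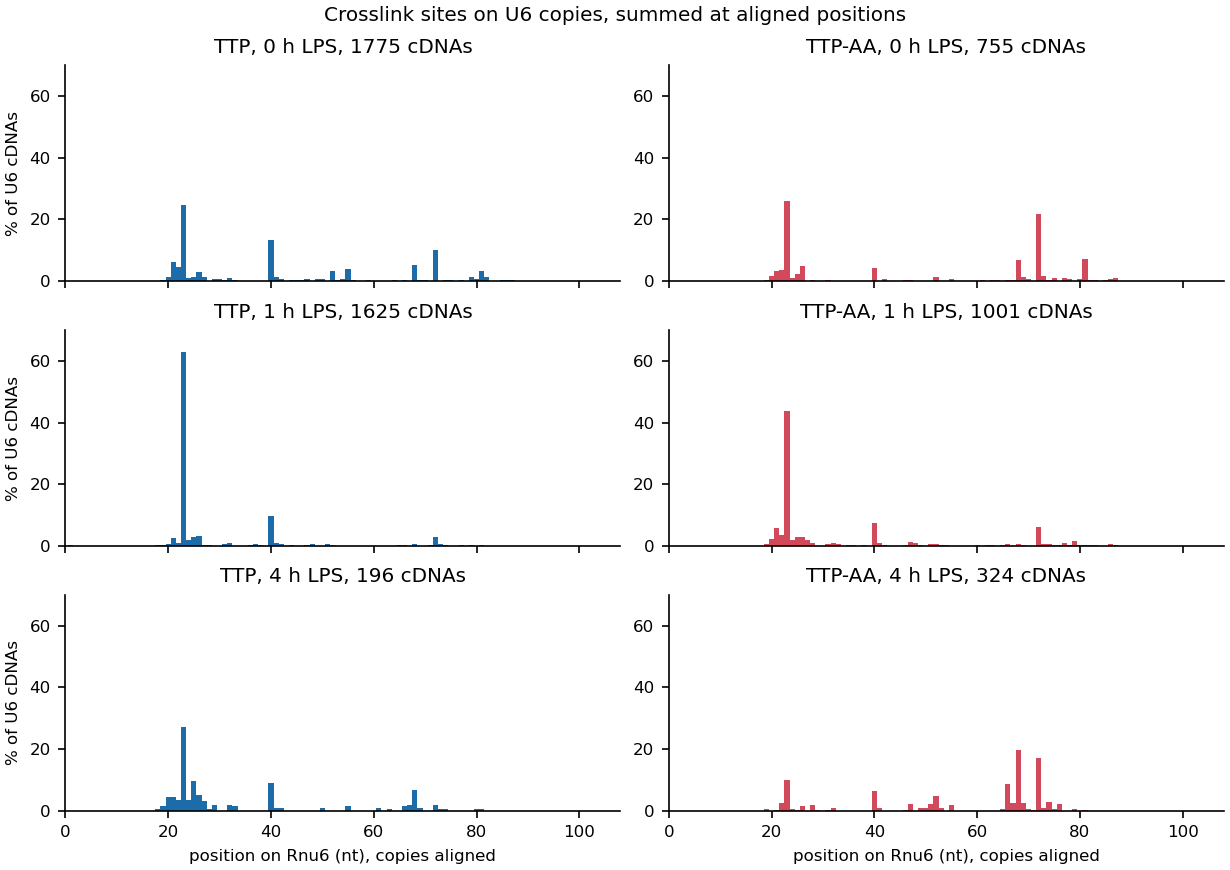
Percent of the U6 cDNAs of a list (y axis) at each aligned position of Rnu6 (x axis, nt), with TTP on the left, TTP-AA on the right and 0, 1 and 4 h of LPS from top to bottom. Base 23 is the highest bar in 5 of the 6 lists, and in TTP-AA at 4 h base 68 is higher.

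U2, which pairs with the branch point of introns, had 13 copies with sites. It carried 327 and 371 cDNAs at 0 h, 212 and 753 after 1 h, and 44 and 154 after 4 h in TTP and TTP-AA. Its share was 1.17-fold (1.00 to 1.36) in TTP-AA at 0 h, 2.02-fold (1.73 to 2.37) at 1 h and 5.31-fold (3.77 to 7.60) at 4 h. At 0 h the interval began at 1.00, and among small RNA cDNAs the ratio was 1.08 (0.932 to 1.26). The direction at 1 h turned when each site counted once (0.505). The copies did not move together. Gm25939 had 68 and 64 cDNAs at 0 h, 51 and 280 at 1 h, but 13 and 1 at 4 h (ratio 0.117, 0.0027 to 0.776), whereas Gm24497 had 32 and 54, 0 and 13, and 4 and 45. Gm22973 had 14 and 54 at 0 h (3.97, 2.18 to 7.74) and 33 and 172 at 1 h (2.97, 2.03 to 4.45), and Gm25360 had 57 and 35 (0.632, 0.403 to 0.980) and 43 and 142 (1.88, 1.33 to 2.71). At 4 h, 143 of the 154 TTP-AA cDNAs lay beyond base 90 of Rnu2-10 (92.9%, 87.7 to 96.0), against 13 of 44 for TTP (29.5%, 18.2 to 44.2). The stretch around base 56 of Gm25939, the position with most U2 cDNAs, is chr1:72255048-72255077 on the plus strand, where the capital marks that base.
Gm25939: tgttcttatcagtttAatatctgatacgcc

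U5, which aligns the exon ends in the spliceosome, had 8 copies and was on the TTP-AA side at each time. It had 54 and 135 cDNAs at 0 h, 27 and 150 after 1 h, and 10 and 52 after 4 h. The ratios were 2.57 (1.86 to 3.60), 3.16 (2.09 to 4.96) and 7.88 (3.96 to 17.4). Rnu5g had 10 and 24 cDNAs before LPS, 0 and 32 after 1 h and 8 and 23 after 4 h. At 1 h its share was 6.07-fold higher in TTP-AA with the TTP count set to the floor of 3. Such folds leave out the counting error of the other list and are not limits. Gm22265 had 0 and 12, 1 and 34, and 0 and 13 cDNAs, and Gm25099 had 5 and 32, 0 and 11, and 0 and 3. Before LPS 68.5% of TTP and 71.1% of TTP-AA cDNAs lay within 5 nt of the leading base of the list, which was 87 in TTP and 86 in TTP-AA. At 1 h the median position was 43 in TTP, over 27 cDNAs, and 79 in TTP-AA, and at 4 h it was 81.5 and 80. Base 89 of Rnu5g, where it had most cDNAs, is the capital in chr9:65201739-65201768 on the minus strand, just before a run of U (T).
Rnu5g: tgagtcttaaaccaaTtttttgaggccttg

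U1, which recognises the 5′ splice site, went the other way at 0 h. It had 46 and 10 cDNAs at 0 h (0.224, 0.101 to 0.450), 237 and 216 after 1 h (0.519, 0.429 to 0.626), and 25 and 20 after 4 h (1.21, 0.639 to 2.27). At 1 h the value outside 3′UTRs was 1.01 (0.837 to 1.22), so that no direction was set there. Base 29 of the U1 reference held 161 of 554 cDNAs, with 78 of 237 in TTP and 69 of 216 in TTP-AA at 1 h, whereas base 134 led in TTP at 0 h (10 of 46) and in TTP-AA at 4 h (13 of 20). Only 49.3% of U1 cDNAs with 30 nt left lay at sequence found in 1 annotated locus. The RNAs of the minor spliceosome were few. U12 had 31 and 34, 58 and 71, and 14 and 18 cDNAs with intervals that included 1 at each time, and U11 had 8 and 17, 7 and 17, and 0 and 9. Of the 222 cDNAs of Rnu12, 92 lay at the single base 119 printed above.

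**Figure D4:**
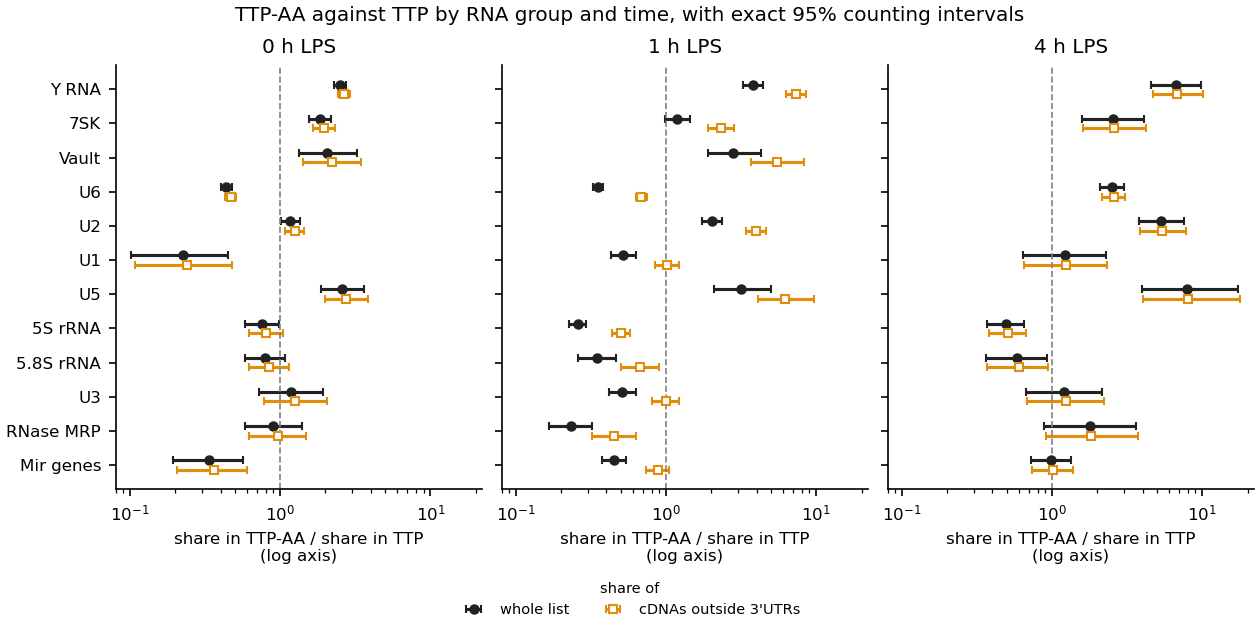
Share in TTP-AA over share in TTP (x axis, log scale, dashed line at 1) for 12 groups of small RNAs at 0, 1 and 4 h of LPS, with exact 95% counting intervals. Black circles take the share of the whole list and orange squares the share of cDNAs outside 3′UTRs, and groups with under 10 cDNAs over both lists are not drawn. Y RNA and U5 lie right of 1 in each panel, 5S rRNA lies left, and U6 moves from 0.438 at 0 h to 2.51 at 4 h.

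7SK had the larger share in TTP-AA at 0 h and 4 h. The family had 217 and 386 cDNAs at 0 h (1.83, 1.55 to 2.17), 159 and 331 after 1 h (1.18, 0.978 to 1.44) and 30 and 50 after 4 h (2.53, 1.58 to 4.12). At 1 h the ratio depended on the total, with 2.31 (1.91 to 2.81) outside 3′UTRs, 1.70 (1.41 to 2.07) among small RNA cDNAs and 0.932 (0.769 to 1.13) without mitochondrial sites and the chromosome 17 locus. Rn7sk itself held 1053 of the 1173 cDNAs, and the rest lay in 9 copies. Its sites lay between bases 219 and 309 of its 331. The vault RNA Vaultrc5 had 33 and 66 cDNAs at 0 h (2.06, 1.34 to 3.23) and 31 and 152 at 1 h (2.79, 1.89 to 4.25), and none in either list at 4 h. The 4 h intervals reached 0.0132% in TTP and 0.0200% in TTP-AA, and they do not cover sites too weak to be listed. The 1 h direction of Vaultrc5 turned when each site counted once (0.488). 7SL-like genes, copies of the RNA of the signal recognition particle, had 24 and 68 cDNAs at 1 h, 8 and 0 at 4 h and none at 0 h. The named 7SL gene Rn7s6 had 3 of these, and Rn7s1 and Rn7s2 had none.

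RNase P and RNase MRP, which share most of their proteins, had different ratios. Rpph1, the RNA of RNase P, had 44 and 76 cDNAs at 0 h (1.78, 1.21 to 2.64), 25 and 48 at 1 h (1.09, 0.661 to 1.85) and none at 4 h. A part of Rpph1 is also 5′UTR sequence of Ccnb1ip1 and was left out, with 11 TTP cDNAs at 1 h and 5 TTP-AA cDNAs at 4 h. The 0 h ratio was 0.921 when only sequence found in 1 locus and long enough to check was counted, which left 67 cDNAs over the 6 lists. Rmrp had 48 and 42 cDNAs at 0 h (0.901, 0.581 to 1.39), 130 and 53 after 1 h (0.232, 0.165 to 0.322) and 17 and 20 after 4 h (1.78, 0.887 to 3.63). Only the 1 h interval of Rmrp excluded 1. Rmrp also lies within an annotated lincRNA gene of the same symbol.

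The rRNA genes had the larger share in TTP, with an interval that included 1 for 5.8S at 0 h. 5S-like genes, of which 28 had sites, had 139 and 102 cDNAs at 0 h (0.756, 0.579 to 0.983), 701 and 316 after 1 h (0.257, 0.224 to 0.293) and 209 and 68 after 4 h (0.493, 0.370 to 0.651). Outside 3′UTRs their 0 h interval also included 1 (0.806, 0.618 to 1.05). At 1 h all 19 copies with at least 10 cDNAs had the larger share in TTP. n-R5s109 had 39 and 4 cDNAs there (0.0584, 0.0152 to 0.162), n-R5s211 39 and 8, and n-R5s156, the copy with most cDNAs, 138 and 70. Base 31 of the 5S reference led at 1 h in both proteins (145 of 701 and 83 of 316 cDNAs), and base 76 led at 0 h in both (39 of 139 and 13 of 102). Of 5S cDNAs with 30 nt left, 70.3% lay at sequence found in 1 annotated locus. The 5.8S gene n-R5-8s1 had 99 and 76 cDNAs (0.791, 0.578 to 1.08), 129 and 78 (0.344, 0.256 to 0.459) and 70 and 27 (0.585, 0.361 to 0.924). The excluded rRNA-like locus on chromosome 17 also had the larger share in TTP at each time. It held 14.8%, 28.7% and 32.1% of TTP cDNAs and 11.2%, 10.5% and 13.1% of TTP-AA cDNAs at 0, 1 and 4 h. Across time the rRNA genes did not all follow this locus. The 1 h over 0 h ratio of 5.8S was 0.441 (0.337 to 0.579) in TTP and 0.192 (0.138 to 0.267) in TTP-AA. That of 5S was 1.71 (1.42 to 2.06) in TTP and 0.579 (0.462 to 0.732) in TTP-AA. The part of rRNA fragments in general in these values was not tested.

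snoRNAs carried 129 and 186 cDNAs at 0 h (1.48, 1.18 to 1.87), 408 and 475 after 1 h (0.663, 0.579 to 0.758) and 41 and 41 after 4 h (1.52, 0.959 to 2.40). At 1 h the value was 1.29 (1.13 to 1.48) outside 3′UTRs. U3, which is needed for the cleavage of the pre-rRNA, had 34 and 39, 201 and 180, and 29 and 23 cDNAs, of which Rnu3a had 16 and 31, 112 and 117, and 6 and 12. The Rnu3a ratio was 2.00 (1.06 to 3.91), 0.595 (0.455 to 0.777) and 3.03 (1.05 to 9.85) at the 3 times. Snord118 (U8), which acts in the processing of the large ribosomal subunit RNAs, had 22 and 32 at 0 h (1.5, 0.844 to 2.71) and 58 and 25 at 1 h (0.245, 0.147 to 0.398). Snora73a, of the H/ACA class, had 19 and 21 before LPS and 0 and 21 after 1 h, and 51 of its 69 cDNAs lay at base 171. With the TTP count at 1 h set to the floor of 3, its share was 3.98-fold higher in TTP-AA. H/ACA snoRNAs had 17 and 66 cDNAs at 1 h (2.21, 1.28 to 4.02), but showed no direction without sites that also lie in another non-coding exon (0.971, 0.516 to 1.88). The scaRNAs, which guide the modification of snRNAs, had 2 genes with sites, Scarna2 with 19 cDNAs and Gm22009 with 19 TTP and 2 TTP-AA cDNAs at 1 h (0.0599, 0.00677 to 0.248). The U3 genes Rnu3a, Rnu3b1 and Rnu3b3 each have 2 overlapping annotated gene entries, and each site was given to 1 entry. The snoRNA-annotated Gm23262 had 4 and 44 cDNAs at 0 h (11.3, 4.12 to 43.4), and it shares 150 nt with a transcript of Eif4g2, so its reads cannot be told from that transcript.

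microRNA genes gave few sites, and the best known macrophage microRNAs gave none that could be counted. Of 22 genes fixed as a list, which included Mir155, Mir146, Mir21a, Mir223, the miR-17 cluster and the let-7 genes, none had a site outside protein-coding exons. Of 19 genes annotated as miRNA with a site, 10 had a Mir symbol and 8 had a mature sequence in RefSeq (mm10). The mature sequences of the 3 with most cDNAs are printed with the seed, bases 2 to 8, in capitals, to show where the crosslinks lay against them. No seed is shared.
mmu-miR-6236, chr9:110281353-110281371, plus strand, 0 of 441 cDNAs inside: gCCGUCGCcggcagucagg
mmu-miR-6240, chr5:114851973-114851998, plus strand, 127 of 140 cDNAs inside: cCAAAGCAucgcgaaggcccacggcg
mmu-miR-5100, chr11:60728698-60728718, plus strand, 109 of 114 cDNAs inside: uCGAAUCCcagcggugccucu
In Mir6236 the sites lay between bases 1 and 47 of the hairpin, upstream of the mature sequence at bases 67 to 85. Mir6236 had 29 and 0 cDNAs at 0 h, 178 and 92 after 1 h (0.294, 0.226 to 0.380) and 77 and 65 after 4 h (1.28, 0.906 to 1.80). At 0 h its share in TTP-AA was 0.107 of that in TTP with the TTP-AA count set to the floor of 3. Mir6240 had 32 and 20, 36 and 14, and 32 and 6. Mir5100 had sites at 1 h only, 48 and 66. The known microRNA genes Mir142 and Mir27a had 7 and 10 cDNAs, all in TTP-AA at 1 h.

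To describe single genes, a share at least 2-fold apart between the 2 lists of a time was counted, among genes with at least 10 cDNAs over both lists and with counts under 3 set to 3. At 0 h, 20 of 120 small RNA genes (16.7%) were higher in TTP-AA, where 27.0% of all 564 genes were, and 44 (36.7%) were lower, where 23.4% of all genes were. At 1 h, 20 of 153 (13.1%) were higher against 66.6% of 2761 genes, and 83 (54.2%) were lower against 9.02%. At 4 h, 23 of 51 (45.1%) were higher against 36.7% of 199 genes, and 9 (17.6%) were lower against 30.7%. The median log2 ratio of the small RNA genes was -0.54, -1.08 and 0.83 at 0, 1 and 4 h, and that of all genes was 0.04, 1.41 and -0.08. The small RNA genes thus lay below all genes at 0 h and 1 h and above them at 4 h. With cDNAs outside 3′UTRs as the total, 34 were higher and 36 lower at 1 h, so that the split at 1 h depended on the 3′UTR share of the TTP-AA list. The share over all genes is not given on that total, so these counts cannot be set against it.

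Copies of U6 were 37 of the 44 genes lower in TTP-AA at 0 h, where they were 63 of the 120 genes compared, and 36 of the 83 at 1 h, where they were 53 of 153. 5S-like genes added 19 at 1 h. Among those higher, U5 had 5 of 6 tested copies at 0 h, 4 of 7 at 1 h and 3 of 3 at 4 h, and U6 had 9 of 18 at 4 h, near the 45.1% of all small RNA genes. The 5 genes lowest in TTP-AA at 0 h were Gm24456 (38 and 3 cDNAs, ratio 0.0813, 0.0161 to 0.256), Gm25563 (31 and 0), Mir6236, Gm22169 (29 and 0) and Gm22306 (28 and 0), of which all but Mir6236 are U6-like. The list of highest genes at 0 h was Gm23262, Gm25099, n-TSaga9 (3 and 14), Gm24407 (0 and 14) and, with equal counts, Gm22265 and Gm23547 (0 and 12). At 4 h Gm24497 (4 and 45, ratio 17.1, 6.22 to 65.3) and Gm22063 (0 and 30, 15.2-fold higher with the floor of 3) led, followed by Gm23444, Rny3 and, with equal counts, Gm23849 and Gm25312 (0 and 21).

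Few sites in small RNAs lay near the AUUUA core of an AU-rich element in either protein. The content of A and U around the sites was not measured. AUUUA, searched in the sense strand of the RNA and wholly within 20 nt of the site, was found at 6 of 5344 site entries over the 6 lists, in Mir5099 and Gm23301. At 3′UTR sites it was found at 27139 of 76894. By list, AUUUA stood near 0% to 0.298% of small RNA sites and near 29.7% to 45.7% of 3′UTR sites. UAUUUAU was near 0 of 5344 small RNA site entries, and 2 of the 283 genes hold it anywhere. AUUUA occurs in 12 of the 283 genes (4.24%) and in 468 of 6082 small RNA genes with a sequence (7.69%). UUUUU stood near 4.38% to 13.6% of small RNA sites and 31% to 46.4% of 3′UTR sites. Families differed in this. By list it stood near 55% to 100% of U5 sites and 11.1% to 30.8% of U2 sites, and near no Y, 7SK, 5S or U1 site. UUUUU occurs in 120 of the 283 genes (42.4%) and in 1002 of the 6082 (16.5%). The GU-rich UGUGU stood near 0% to 2.73% against 6.85% to 12.7%. GCUUCGGG was near 4 sites, all in 1 U6-like gene in TTP at 1 h.

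U was the base crosslinked most often. The part of UV crosslinking itself in this was not tested. By cDNAs it was the crosslinked base in 47.0% (TTP) and 44.0% (TTP-AA) before LPS, 53.3% and 52.1% after 1 h, and 41.1% and 40.4% after 4 h. The 283 RNAs are 26.3% U. In 3′UTRs the share was between 54.6% and 65%. Some large families were exceptions at some times. In 7SK, U was 16.6% and 23.8% at 0 h in RNAs of 24.6% U, and 32.1% and 36.0% at 1 h. The most crosslinked base printed above for Rn7sk is a C. In 5S-like genes at 1 h, G led with 28.8% and 33.9%. U was 26.0% and 24.7% there, in RNAs of 23.4% U. For U6 in TTP-AA at 4 h, C was 32.1% and U 29.3%.

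Most sites of 1 protein in these RNAs had a site of the other nearby. At 0 h, 858 of 1056 TTP sites (81.2%, 78.8 to 83.5) had a TTP-AA site within 15 nt, and 809 of 897 TTP-AA sites (90.2%, 88.1 to 92.0) had a TTP site. At 1 h the shares were 79.0% and 78%, and at 4 h 69.1% and 65.7%. The exact nucleotide was shared by 47.5% and 56% of sites at 0 h. For 3′UTR sites the shares within 15 nt were 41.5% and 36.5% before LPS and 29.4% and 18.1% after 4 h. At 1 h they were 76.6% and 21.5%, where the TTP-AA list held 61183 3′UTR sites and the TTP list 6775. Small RNAs are short and their sites lie close together, and the part of this in the shares was not tested. Of the genes with at least 20 cDNAs in both lists, 3 of 27 at 0 h, 3 of 49 at 1 h and 1 of 4 at 4 h had median positions more than 15 nt apart between the proteins.

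Positions differed more between times than between proteins in some of the most crosslinked RNAs. In Rmrp, the last 50 bases held 48 of 48 TTP and 42 of 42 TTP-AA cDNAs before LPS and all 17 and 20 at 4 h, but 0 of 130 and 0 of 53 at 1 h. At 1 h the most crosslinked base was 138 in TTP and 206 in TTP-AA, against 248 at 0 h. In Vaultrc5 all cDNAs lay beyond base 60 at 0 h (33 and 66), whereas at 1 h bases 31 to 60 held 90.3% (75.1 to 96.7) of TTP and 95.4% (90.8 to 97.8) of TTP-AA cDNAs. In Rn7sk the last 65 bases held 78.4% (72.0 to 83.7) and 71.2% (66.3 to 75.7) at 0 h, and 36.0% (28.4 to 44.4) and 33.1% (27.9 to 38.7) at 1 h. At 4 h they held 13.3% (5.31 to 29.7), 4 of 30 cDNAs, in TTP and 55.1% (41.3 to 68.1), 27 of 49, in TTP-AA, so that the proteins differed there. Rpph1 kept its sites in the last 50 bases at 1 h in TTP-AA (48 of 48) and not in TTP (0 of 25). Between 0 h and 1 h, 8 of 37 genes in TTP and 6 of 25 in TTP-AA had medians more than 15 nt apart, and Rmrp, Vaultrc5, Rn7sk and n-R5-8s1 were among them in both. The Y RNAs were not. Only Rmrp, of these RNAs, had its sites back at the 0 h stretch at 4 h in both proteins. n-R5-8s1 in TTP-AA had its median at base 101 before LPS, 68 after 1 h and 70 after 4 h, and Vaultrc5 had no site at 4 h. The header mark of the 1 h lists cannot be told apart from LPS in the differences between 0 h and 1 h. The 0 h and 4 h lists both lack it. Between these 2 times, medians were more than 15 nt apart for 1 of 6 genes in TTP (Rn7sk). In TTP-AA this held for 2 of 13 genes (Gm25202 and n-R5-8s1). No cause was tested here.

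**Figure D5:**
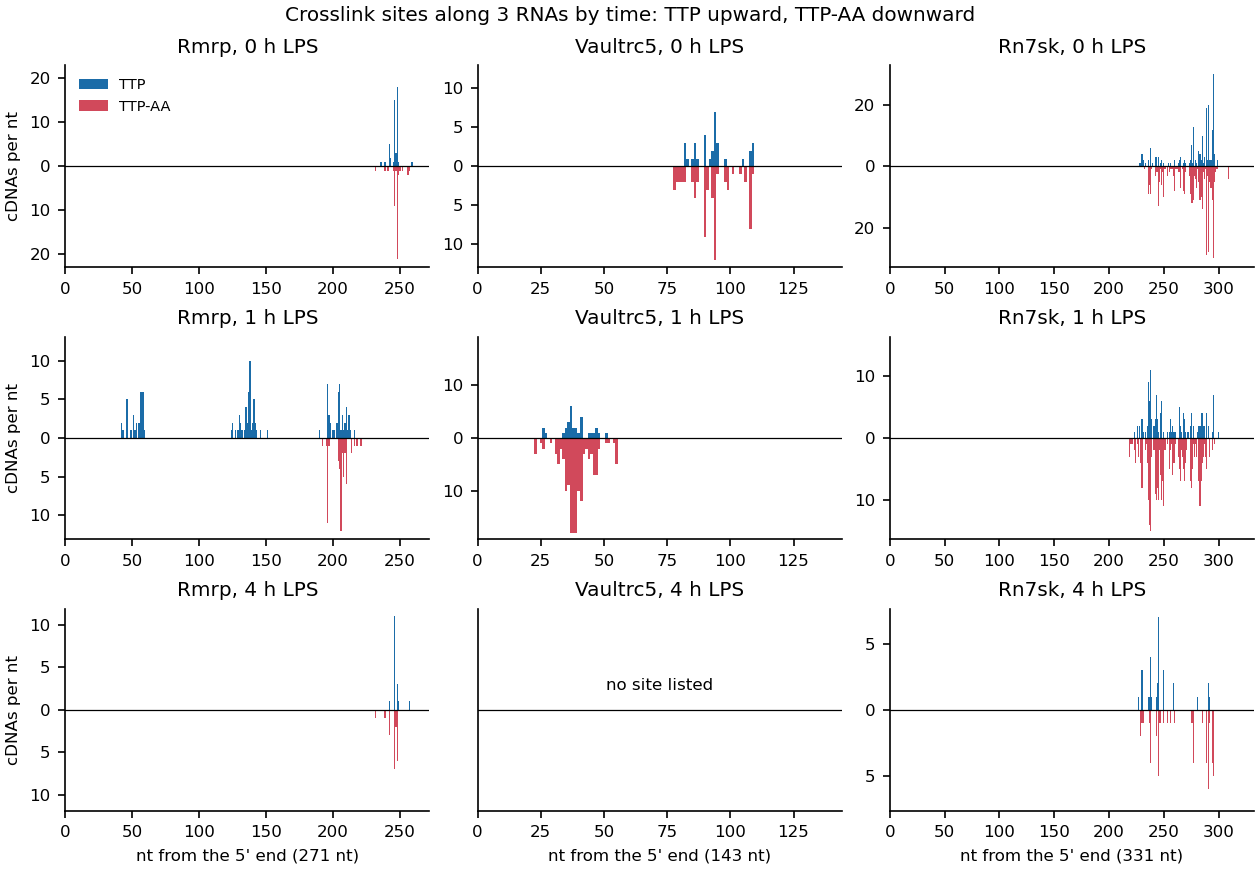
cDNAs per nucleotide (y axis, each panel with its own scale) along Rmrp, Vaultrc5 and Rn7sk (x axis, nt from the 5′ end) at 0, 1 and 4 h of LPS, TTP upward in blue and TTP-AA downward in red. In Rmrp the sites lie around base 248 at 0 h and 4 h and upstream of it at 1 h, and Vaultrc5 has no site at 4 h.

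Across time, the share of small RNAs was lower at 1 h than at 0 h in both proteins. The 1 h over 0 h ratio was 0.418 (0.400 to 0.436) for TTP and 0.270 (0.259 to 0.281) for TTP-AA. Outside 3′UTRs the values were 0.402 and 0.474. From 1 h to 4 h the ratio was 0.617 (0.572 to 0.664) for TTP and 1.64 (1.54 to 1.76) for TTP-AA, but 0.805 (0.752 to 0.860) for TTP-AA outside 3′UTRs, so that the direction in TTP-AA was set by the 3′UTR share. Y RNAs were lower at 1 h than at 0 h in both, by a ratio of 0.111 (0.0940 to 0.13) in TTP and 0.166 (0.155 to 0.179) in TTP-AA, and vault RNA, 7SK, U2, U5 and U6 also had ratios below 1 in both. Among small RNA cDNAs these groups all went down in TTP. In TTP-AA, vault RNA went up there from 1.69% to 2.69% and U2 from 9.48% to 13.3%, whereas Y RNA, 7SK, U5 and U6 went down. 5S rRNA had a ratio of 1.71 (1.42 to 2.06) in TTP and 0.579 (0.462 to 0.732) in TTP-AA, where it was 1.02 (0.813 to 1.29) outside 3′UTRs and 2.15 (1.71 to 2.71) among small RNA cDNAs. For U1 the ratios were 1.74 (1.27 to 2.45) and 4.04 (2.15 to 8.54). The named housekeeping RNAs were only in part among the genes with sites. Of the 11 spliceosomal and U7 genes with a standard symbol, 3 had a site (Rnu11, Rnu12 and Rnu5g), and of 11 U3, U8, U13 and U14 genes 8 had one. Of 4 7S genes 2 had a site, Rn7sk and Rn7s6, both RNase genes and all 3 Y and vault genes had sites, and 23 of 180 named 5S genes had one. The genes with sites overlapped in part, with 105 genes in both 0 h lists (69.1% of the TTP and 84.7% of the TTP-AA genes), 130 in both 1 h lists (74.7% and 68.8%) and 43 in both 4 h lists (57.3% and 58.9%). 32 of the 283 genes had a site in all 6 lists and 98 in 1 list only.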

How the data were processed

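The iCLIP libraries of each group had been summed by the authors and deposited as 1 site list, whose value, treated here as a score, is the unique cDNA count with the strand as its sign. Per the labels and methods, reads were split by barcode, copies were collapsed by 4 random bases, unique hits to mm10 (Ensembl 75) were kept with Bowtie (version not given in the sources used here), and iCount kept sites with FDR below 0.05 over 100 permutations. Reads of repeated genes are therefore lost or fall to single copies, and weakly crosslinked RNAs are missing.

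Here, sites were placed in GENCODE M21 genes with Python 3.11.15 (pandas 2.3.3). Families were set by symbol or by blastn 2.17.0 at 80% identity or more over at least 50% of the shorter RNA, and copies were aligned with Biopython 1.88. Shares have Wilson intervals and ratios exact Clopper-Pearson intervals (scipy 1.17.1), at 95%. The calling of 2-fold differences was tested on simulated data. The simulated counts were independent, without spread between libraries or reads shared by copies, so these errors were not covered. Genes named were the 5 with most cDNAs per list, the 5 with the largest fold each way, the 2 leading genes per class and a list of housekeeping RNAs and macrophage microRNAs. Windows within single RNAs, the U6 copies printed, and Gm24379, Gm26456, Gm23301, Gm23547, Gm25312, Mir142, Mir27a, Mir5099 and Mir5100 were chosen after their values were seen. Members and lists were chosen with earlier results of these data known. Motifs were read in spliced transcripts, not introns.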

Additional observations from a re-analysis of the deposited data

Results flagged for a closer look

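The U6 family had a smaller share in TTP-AA than in TTP at 0 h (ratio 0.438) and 1 h (0.351) and a larger one at 4 h (2.51), with intervals that excluded 1 at each time. The difference between the times was not tested, since each list is a sum of libraries. Small RNA genes that lie inside protein-coding exons were outside the comparisons, yet they held 92 TTP and 64 TTP-AA cDNAs before LPS, 152 and 144 after 1 h, and 35 and 30 after 4 h, above the floor of 3 used here. Of these, the snRNA gene Gm26325, inside the 3′UTR of Rnf225, had 61 and 45, 90 and 48, and 28 and 8. Rnu7, the RNA that processes histone mRNA ends, lies in a 5′UTR of Grcc10 and had 20 and 18, 23 and 49, and 0 and 17. Mir21a, in the 3′UTR of Vmp1, had 5 in TTP-AA at 1 h.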

How the results depend on the processing

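No paired analysis was possible because each list is a sum over libraries, and for the same reason no replicate was left out. The planned check that the next 30 nt occur once in the genome was not run, as no genome sequence was used here, and was replaced after seeing the data by sequence found in 1 annotated locus. Also added after seeing the data were the total outside 3′UTRs and the sums without the Y or U6 family. The share ratio of TTP-AA over TTP at 0, 1 and 4 h was 0.831, 0.324 and 0.912 with each site counted once, and 1.17, 0.936 and 2.52 with sites of at least 2 cDNAs. Without chrM and the chromosome 17 locus it was 0.547 at 1 h and 1.44 at 4 h. Without Rny3 it was 0.907 at 0 h and 0.607 at 1 h. In 1 locus it was 1.16 at 0 h and 1.63 at 4 h, and outside 3′UTRs 1.15 at 0 h and 1.36 at 1 h. It was 0.792, 0.554 and 1.65 without the Y family and 1.65, 0.883 and 1.65 without U6. Of the named family ratios whose interval excluded 1, those that turned were Y (0.413), vault (0.488), U2 (0.505) and H/ACA snoRNA (0.810) at 1 h and RNase P at 0 h (0.978) with each site counted once, U1 (1.01) and C/D snoRNA (1.07) at 1 h outside 3′UTRs, H/ACA snoRNA at 1 h (0.971) without sites in another non-coding exon, and RNase P at 0 h (0.921) in 1 locus. These are 7 of the 45 ratios computed. Ratios whose interval included 1 were not counted as turned, such as 7SK (0.932) and RNase P (0.860) at 1 h and U1 (0.943) at 4 h without chrM and the locus, or U12 (1.36) at 1 h outside 3′UTRs. Genes in no family, not among the 45, went from 0.621 to 1.21 at 1 h outside 3′UTRs. Counts of genes at least 2-fold higher in TTP-AA were 20, 20 and 23 at the 3 times. They were 8 and 10 at 0 h and 1 h at 3-fold, 13, 10 and 12 with at least 20 cDNAs, 6, 0 and 4 by sites, and 34 at 1 h outside 3′UTRs. Counts lower were 44, 83 and 9. They were 25, 54 and 2 at 3-fold, 3 at 4 h with at least 20 cDNAs, 16 at 0 h by sites, 25 at 0 h in 1 locus, 36 at 1 h outside 3′UTRs and 16 at 4 h among small RNA cDNAs. Shares over all genes are not given for these alternative counts. The causes were not tested. The 4 h lists had the fewest small RNA cDNAs (834 and 1020), and 51 small RNA genes reached 10 cDNAs there.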

Other observations

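The largest count at 1 small RNA site was 98 cDNAs, in TTP at 1 h, while between 43.0% and 60.8% of the small RNA sites of a list rested on 1 cDNA. The snRNA genes Gm24265 and Gm24407, which were given no family here, are 98.6% identical over 141 nt and had 183 and 79 cDNAs. Gm24601, annotated as rRNA, is 82.5% identical to n-R5-8s1 over 103 nt and had 8 and 10 cDNAs in TTP and TTP-AA before LPS, 19 and 30 after 1 h, and 22 and 5 after 4 h. The miRNA-annotated n-TSaga9 is 96.5% identical to n-TStga1 over 86 nt, and both carry symbols of serine tRNA genes.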
